A study of Mus musculus with 18 samples.

Results

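Expression of 36 genes of the cell cycle and of DNA replication was examined in macrophages grown from the bone marrow of C57BL/6J mice. The genes are those of a named list, matched by symbol in both deposited count tables, out of 24059 symbols. They cover the licensing factors and helicase of replication (Mcm2 to Mcm7, Cdc6, Cdt1, Cdc45, Gins2), the sliding clamp and nucleotide supply (Pcna, Rrm1, Rrm2, Tyms, Tk1), the transcription factor E2f1, the G1 cyclins and kinases (Ccnd1, Ccnd2, Ccnd3, Ccne1, Ccne2, Cdk2, Cdk4), the kinase inhibitors Cdkn1a and Cdkn1b, the later cyclins and their kinase (Ccna2, Ccnb1, Ccnb2, Cdk1), and genes of mitosis and proliferation (Mki67, Top2a, Aurka, Aurkb, Bub1, Plk1, Birc5).

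RNA-seq was made from 18 libraries in 6 groups of 3. The cells were grown from marrow for 7 days in medium with 20% L929-conditioned medium, a source of the growth factor CSF1, and were then kept in 4%. In the first count table, cells given lipopolysaccharide (LPS, a bacterial stimulus of Toll-like receptor 4) stand against untreated cells. In the second table all 4 groups received LPS: cholesterol loading by liposomes, then reconstituted high-density lipoprotein (rHDL), then LPS; loading, then LPS; rHDL for 20 h, then LPS; and LPS alone. The rHDL was CSL111, which pairs APOA1 with soybean phosphatidylcholine. No group had rHDL or loading without LPS, and neither the dose nor the time of LPS is stated in the sources used here. The sources do not say whether replicates came from separate cultures or animals, so p-values measure only the spread between these libraries, which may be technical.

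A cell enters the division cycle when D-type cyclins with CDK4 release E2F transcription factors from the retinoblastoma family, and E2F factors then raise the genes of replication. The MCM2 to MCM7 helicase is loaded on DNA in G1 by CDC6 and CDT1 and fires in S phase, and cyclin B with CDK1 drives mitosis. Macrophages grown from marrow divide in response to CSF1, and LPS is known to stop this division in culture.

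E2F factors bind a short motif whose core was searched as TTCGCGC or TTGGCGC on both strands, in the window running 250 bases before to 50 after each RefSeq gene start (build GRCm38.p6). The promoter table matched 29 of the 36 genes, with 32 starts. The core occurred in 8 of the 29 genes (Ccnb1, Cdk1, Cdt1, Mcm3, Mcm5, Mcm6, Mcm7 and Mki67), in 25% of their promoters and in 3.89% of all 32851 promoters. A longer form with another T in front occurred in 6 of the genes and in 0.813% of all promoters. The CCAAT box (CCAAT) occurred in 20 of the genes and in 37.4% of all promoters, and the cell cycle homology motif (TTTGAA or TTCGAA) in 10 of the genes and in 19.2%. A CCAAT match can share letters with the reverse complement of the core. Shown are the windows of Mcm3, Mcm6 and Mcm5, of which rHDL raised the first, lowered the second and left the last uncalled, of Mcm7, which was lower in every LPS-treated library, and of Mki67, the proliferation marker that went against most of the list. Mcm7 has another listed start, whose window holds no core. Capitals mark the E2F core on either strand, with overlapping matches run together, and a match is a description of letters, not a binding site.
Mcm3 (chr1:20820263-20820562, minus strand): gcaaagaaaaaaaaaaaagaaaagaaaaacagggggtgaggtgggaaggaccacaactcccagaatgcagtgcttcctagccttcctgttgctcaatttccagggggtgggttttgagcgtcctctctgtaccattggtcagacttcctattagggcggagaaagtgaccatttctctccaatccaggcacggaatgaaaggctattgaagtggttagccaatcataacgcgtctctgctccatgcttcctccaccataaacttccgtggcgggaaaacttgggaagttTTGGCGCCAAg
Mcm6 (chr1:128359656-128359955, minus strand): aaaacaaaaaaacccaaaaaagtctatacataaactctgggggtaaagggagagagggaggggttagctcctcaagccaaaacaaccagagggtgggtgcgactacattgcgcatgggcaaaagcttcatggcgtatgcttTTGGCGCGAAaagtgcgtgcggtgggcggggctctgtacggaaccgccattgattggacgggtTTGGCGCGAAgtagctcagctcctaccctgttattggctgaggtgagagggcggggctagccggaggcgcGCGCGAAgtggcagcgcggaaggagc
Mcm5 (chr8:75109259-75109558, plus strand): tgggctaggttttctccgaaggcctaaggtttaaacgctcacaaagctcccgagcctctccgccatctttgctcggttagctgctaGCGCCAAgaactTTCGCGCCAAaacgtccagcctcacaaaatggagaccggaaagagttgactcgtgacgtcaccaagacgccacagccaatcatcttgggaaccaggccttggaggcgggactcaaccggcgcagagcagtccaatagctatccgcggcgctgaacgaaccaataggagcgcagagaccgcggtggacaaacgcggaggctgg
Mcm7 (chr5:138171834-138172133, minus strand): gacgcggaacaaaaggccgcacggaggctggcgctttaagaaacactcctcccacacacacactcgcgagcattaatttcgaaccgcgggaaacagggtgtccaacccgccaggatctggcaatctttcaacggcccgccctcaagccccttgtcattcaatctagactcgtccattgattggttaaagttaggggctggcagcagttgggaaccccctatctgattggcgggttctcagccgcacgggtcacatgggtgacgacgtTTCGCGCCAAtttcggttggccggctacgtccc
Mki67 (chr7:135716330-135716629, minus strand): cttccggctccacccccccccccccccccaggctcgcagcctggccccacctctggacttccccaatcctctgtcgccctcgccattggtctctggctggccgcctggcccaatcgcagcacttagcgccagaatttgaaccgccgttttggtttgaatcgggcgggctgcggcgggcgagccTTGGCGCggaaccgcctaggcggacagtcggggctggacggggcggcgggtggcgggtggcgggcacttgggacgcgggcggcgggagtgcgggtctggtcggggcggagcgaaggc
The windows of Mcm3, Mcm6 and Mcm7 hold 2, 5 and 2 core matches, that of Mcm5 holds 3 and that of Mki67 holds 1, each overlapping match counted.

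Libraries of LPS-treated and untreated cells held 11450243 to 16835472 counts, and the remaining 12 libraries held 9464916 to 15607889. Reads that overlap more than 1 transcript row were not counted: each of the 6696 rows sharing its entire exon sequence with others held 0 counts in every library. Of the 36 genes, 21 kept every exon base, while Bub1, Tyms, Tk1, Aurka, Cdc6, Cdk2, Ccne2 and Cdc45 kept between 0.0692% and 17.6%. Tyms, Aurka and Bub1 were listed at 0 counts in all 18 libraries, which with so few countable bases says nothing of their expression. After a filter on low counts, 27 of the 36 genes were tested for the first table, against 22 for the second. Those not tested in either table were Tyms, Cdc6, Cdc45, Ccne2, Cdk2, Aurka, Bub1, Birc5 and Tk1. E2f1, Ccnd3, Ccnb1, Aurkb and Plk1 were tested in the first table alone. Birc5 kept 71.5% of its exon bases and had 3 counts over the LPS libraries against 24 over the untreated ones. Cdkn1a was tested on 206 exon bases of its own (10.2%), E2f1 on 764 (24.7%) and Ccnd3 on 142 (6.28%). The remaining bases of Cdkn1a and of E2f1 were shared between the 2 transcript rows of the same gene. On the bases counted, a change of the gene and a shift between its transcripts cannot be told apart.

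**Figure D1:**
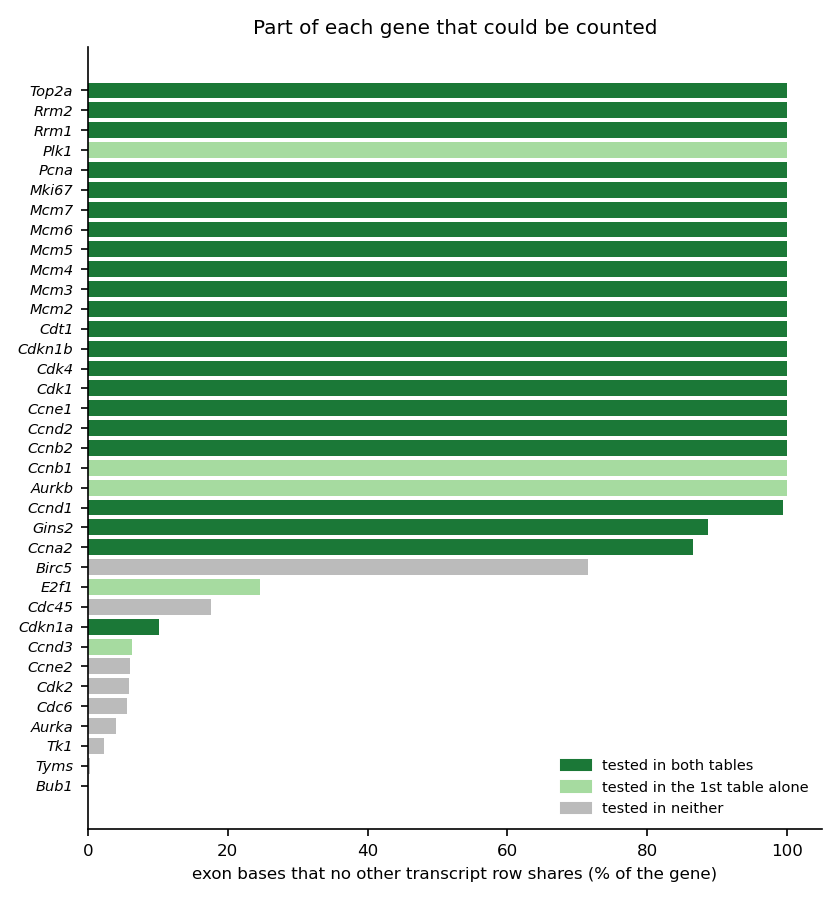
Share of each gene's exon bases (horizontal axis, % of the gene) that no other transcript row in the deposited tables shares, for the 36 genes. Dark green genes were tested in both tables, light green genes in the table of LPS and untreated cells alone, and grey genes in neither; 21 genes stand at 100%.

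Some libraries stood apart. Of the 27 genes tested in the first table, untreated replicate 1 had the highest value of its group for 26, and untreated replicate 3 the lowest for 21. The order of these libraries over all genes was not counted. In the second table, replicate 3 of loading then LPS had a normalised read count of 27.1 CPM (counts scaled to library size) summed over 7 stromal markers, against 1.80 and 1.73 in replicates 1 and 2, and 159 CPM over 7 dendritic markers, against 77.7 and 97.8. The macrophage markers Csf1r, Cd68, Lyz2, Mrc1, Cd14, Mertk and Fcgr1 were measured in every group, while Itgam was listed at 0 in all and Adgre1 was not listed. Markers of blood progenitors, which divide and could carry cell cycle RNA, summed to 0.139 to 3.03 CPM over all libraries, with Kit and Ctsg at 0 in every group. The countable bases of the markers are not given here, and where these are few a 0 says nothing of expression. Lymphoid markers summed to at most 0.513 CPM.

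LPS against untreated cells gives the response of these genes to LPS itself. D-type cyclins went opposite ways: Ccnd1 fell and Ccnd2 rose, each by more than any other gene of the list in its direction. All 8 tested genes of licensing and the helicase fell, as did E2f1, both ribonucleotide reductase genes and all 4 of the later cyclins and their kinase. Mki67, Cdkn1a, Ccne1 and Cdkn1b rose. In all, 5 of the 27 tested genes were higher and 20 lower at an adjusted p under 0.05 (edgeR's quasi-likelihood test, Benjamini-Hochberg over all 9576 genes), while LPS changed 72.9% of all genes, 35.3% higher and 37.6% lower. The median log2 fold change was -0.94 over the 27 genes and -0.05 over all genes. In bulk RNA, fewer cells of a type and less RNA per cell cannot be told apart, and the same holds for fewer dividing cells and less of a transcript in each.

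Ccnd1, a cyclin that pairs with CDK4 in G1 (mm10 chromosome 7, 144929931 to 144939925), had 11.4, 12.2 and 12.3 CPM in LPS-treated cells, against 188, 169 and 129 CPM in untreated cells. Its log2 fold change was -3.75 ± 0.14 (SE, adjusted p = 1.76e-09). Ccnd2, its close relative (chromosome 6, 127125709 to 127151048), had 594, 526 and 589 CPM in LPS-treated cells, against 26.7, 23.1 and 24.2 CPM in untreated cells. This was a log2 fold change of 4.53 ± 0.10 (adjusted p = 2.76e-11), and for neither gene did the groups overlap. Per 1000 countable exon bases, Ccnd2 averaged 98.7 CPM and Ccnd1 3.18 CPM in LPS-treated cells, while in untreated cells Ccnd2 averaged 4.27 CPM and Ccnd1 42.8 CPM. The order of the 2 cyclins was thus opposite in the 2 groups. Their partner Cdk4 averaged 58.5 ± 6.89 CPM in LPS-treated cells and 92.4 ± 1.80 CPM in untreated cells (SD, n = 3 each), a log2 fold change of -0.66 ± 0.09 (adjusted p = 6.09e-05). Ccnd3, counted on few bases, did not pass (-0.49 ± 0.30, adjusted p = 0.165).

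Ccne1, the cyclin that partners CDK2 at the entry into S phase, had 18.9, 23.2 and 21.8 CPM in LPS-treated cells, against 4.86, 4.99 and 4.08 CPM in untreated cells. It rose by 2.18 ± 0.13 on the log2 scale (adjusted p = 5.76e-08), and every LPS library was above every untreated one. Cdkn1a, which encodes the p21 inhibitor of cyclin-dependent kinases, had 48.0, 29.0 and 37.6 CPM with LPS and 3.71, 3.36 and 2.24 CPM without. Its log2 fold change was 3.58 ± 0.21 (adjusted p = 5.74e-08), on 206 countable bases that its 2 transcript rows do not share. Cdkn1b, which encodes the p27 inhibitor, had 67.2, 58.3 and 67.8 CPM with LPS and 47.2, 46.4 and 46.4 CPM without. Its rise of 0.46 ± 0.08 (adjusted p = 0.000436) depended on the scaling, since with library totals alone it was -0.25 (adjusted p = 0.0177). E2f1 had 1.52, 2.14 and 1.21 CPM in LPS-treated cells, against 5.10, 4.71 and 3.47 CPM in untreated cells, a log2 fold change of -1.45 ± 0.25 (adjusted p = 0.000321).

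Among helicase genes, Mcm2 had 5.05, 3.42 and 3.47 CPM in LPS-treated cells, against 26.3, 22.2 and 18.3 CPM in untreated cells (-2.49 ± 0.19, adjusted p = 3.91e-07). Mcm7 had 4.04, 4.37 and 4.42 CPM in LPS-treated cells, against 27.1, 22.0 and 17.7 CPM in untreated cells (-2.39 ± 0.18, adjusted p = 3.59e-07). The remaining helicase subunits fell less, with log2 fold changes of -1.15 ± 0.17 for Mcm5, -0.92 ± 0.11 for Mcm6, -0.89 ± 0.13 for Mcm3 and -0.60 ± 0.10 for Mcm4. The subunits work in 1 complex, and the values here are of transcripts. Cdt1, a loader of the helicase, changed by -1.54 ± 0.11, and Gins2, a subunit of the GINS complex that activates it, by -0.76 ± 0.22. Each of the 8 genes had its LPS-treated libraries below its untreated ones. Of the 27 tested genes of the list, all but Ccnb2, Ccnd3 and Pcna had groups that did not overlap, in either direction. The share of all genes separated in this way was not counted, while LPS changed 72.9% of all genes.

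Rrm1, the large subunit of ribonucleotide reductase, had 16.1, 20.0 and 16.8 CPM in LPS-treated cells, against 45.4, 40.2 and 35.0 CPM in untreated cells (-1.19 ± 0.12, adjusted p = 5.22e-06). Rrm2, its S-phase partner, changed by -1.80 ± 0.28 (adjusted p = 0.000133). Of the clamp and nucleotide genes tested (Pcna, Rrm1 and Rrm2), Pcna, the sliding clamp, was by far the most abundant per length. It stood at 230.2 CPM per 1000 countable bases in LPS-treated cells and 206 CPM in untreated cells. Its groups overlapped, at 259, 308 and 303 CPM with LPS and 279, 272 and 228 CPM without. Its change of 0.16 ± 0.10 did not pass (adjusted p = 0.167), and with library totals it was -0.56.

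Ccna2, the S and G2 cyclin, had 1.94, 1.59 and 1.82 CPM in LPS-treated cells, against 9.91, 5.83 and 4.42 CPM in untreated cells (-1.94 ± 0.32, adjusted p = 0.000242). Ccnb1, a mitotic cyclin, had 0.421, 1.27 and 0.520 CPM with LPS and 4.54, 2.75 and 1.36 CPM without (-1.98 ± 0.50, adjusted p = 0.00432). Its groups were narrowly apart, and both held few counts, 27 over the LPS libraries and 177 over the untreated ones. Aurkb, a mitotic kinase, had 0.421, 1.19 and 0.780 CPM with LPS and 6.12, 3.59 and 3.40 CPM without (-2.45 ± 0.37, adjusted p = 0.000118). Cdk1, the mitotic kinase of the cyclins, changed by -1.32 ± 0.24, Plk1, another mitotic kinase, by -1.43 ± 0.35, and Top2a, the topoisomerase of dividing cells, by -0.89 ± 0.24. Ccnb2 changed by -0.94 ± 0.36 (adjusted p = 0.0363) with overlapping groups. That call ended without untreated replicate 1 or 2 (log2 fold change -0.58 and -0.94, adjusted p = 0.159 and 0.0649), without LPS replicate 1 or 2 (-0.70 and -0.99, adjusted p = 0.112 and 0.0606), and with DESeq2 (adjusted p = 0.0593).

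Mki67, the gene of the Ki-67 proliferation antigen (chromosome 7, 135689788 to 135716379), ran against the other late genes. It had 583, 429 and 475 CPM in LPS-treated cells, against 54.6, 38.3 and 22.7 CPM in untreated cells, a log2 fold change of 3.67 ± 0.26 (adjusted p = 2.3e-07). All of its 10075 exon bases were countable, and replicate 3 was the lowest untreated library. The 10 other S, G2 and M genes of the list summed to 27.4, 32.4 and 26.3 CPM in the same LPS-treated libraries, against 91.1, 59.4 and 42.7 CPM in untreated ones. Top2a supplied most of each sum, and Aurka and Bub1 added 0. Without Top2a the sums were 8.59, 11.8 and 9.71 CPM in LPS-treated libraries, against 42.3, 26.5 and 20.9 CPM in untreated ones. Every LPS-treated library was thus above every untreated one for Mki67 and below every untreated one for the sum of the others, with or without Top2a.

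**Figure D2:**
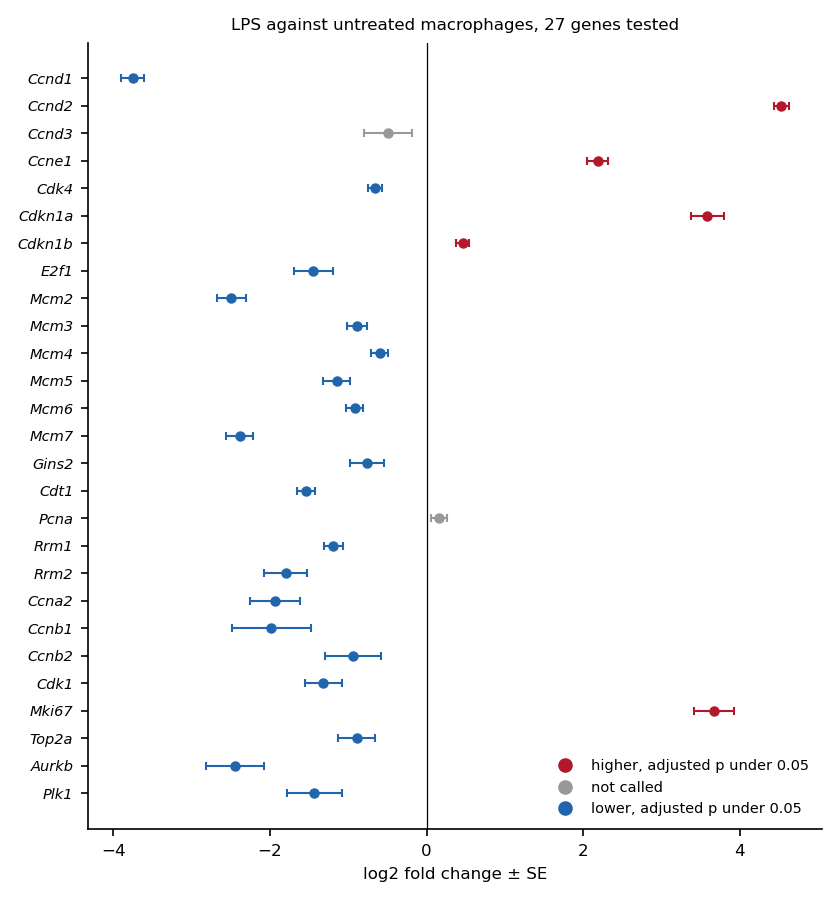
Log2 fold change of LPS-treated over untreated cells (horizontal axis, points with SE, n = 3 libraries per group) for the 27 genes tested, ordered by role with G1 genes at the top. Red points were called higher (5 genes), blue points lower (20 genes) and grey points neither (Ccnd3 and Pcna); Ccnd2 stands at 4.53 and Ccnd1 at -3.75.

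Scaling bore on how many genes fell. With library totals alone the median of all genes was -0.77, 18.7% of calls over all genes were higher in place of 48.4%, and 4 of the 27 genes were higher and 23 lower. Ccnd2, Mki67, Cdkn1a and Ccne1 were the 4. Beside the changes, the 8 macrophage markers in the table summed to 26725 to 32207 CPM in LPS-treated cells and 24381 to 29389 CPM in untreated cells, and 8 neutrophil markers to 228 to 267 CPM in LPS-treated cells and 176 to 195 CPM in untreated cells. The dendritic markers summed to 575 to 739 CPM in LPS-treated cells and 356 to 506 CPM in untreated cells, and the 8 markers of mast, erythroid and megakaryocyte cells to 62.0 to 98.8 CPM in LPS-treated cells and 14.3 to 30.4 CPM in untreated cells. Progenitor markers summed to 1.35 to 3.03 CPM in LPS-treated cells and 0.417 to 1.30 CPM in untreated cells, with Kit, Elane and Ctsg at 0 in both and Gfi1, the 1 marker tested, higher. Stromal markers stood at no more than 1.18 CPM in either group. The part of such cells in the result was not tested.

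Further genes of the pathway were counted in 5 lists, to be read against the 72.9% of all genes that LPS changed (35.3% higher and 37.6% lower). Of 30 tested of 42 further replication genes, 4 were higher and 19 lower with LPS (median -0.76, against -0.05 over all genes). Gmnn, which encodes the inhibitor of CDT1, changed by -3.61 ± 0.17 (adjusted p = 8.93e-09), while Samhd1, an enzyme that breaks down deoxynucleotides, rose by 1.86 ± 0.10 (adjusted p = 2.56e-08). Of 29 tested of 40 further mitosis genes, 3 were higher and 23 lower (median -1.27). Incenp, a partner of Aurora B, changed by -1.92 ± 0.09, and Mad2l1, of the spindle checkpoint, was among the 3 at 2.23 ± 0.13. The RB and E2F family had 6 higher and 4 lower of 13 tested of 21: the repressor E2f8 rose by 2.96 ± 0.16 and the pocket protein gene Rbl1 by 1.94 ± 0.10, while the activator E2f2 changed by -4.30 ± 0.33. Of 18 tested of 22 kinase inhibitors and p53 targets, 7 were higher and 6 lower, with Gadd45b at 3.29 ± 0.09 and Zmat3 at -2.06 ± 0.11. Of 13 tested of 18 growth signal genes, 6 were higher and 4 lower. Id3, an inhibitor of basic helix-loop-helix factors, was at 3.82 ± 0.21 and the Myc antagonist Mxd1 at 2.20 ± 0.12.

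The second table also held cells given LPS alone, and the levels of the list differed between the tables, which were scaled separately and not tested against each other. Cells with LPS alone averaged 158 ± 28.1 CPM of Mki67 in the second table and 495 ± 79.3 CPM in the first. Cdkn1a averaged 3.11 ± 0.394 CPM in the second and 38.2 ± 9.50 CPM in the first, and Top2a 4.87 ± 1.43 CPM and 18.7 ± 2.01 CPM. Ccnd2 and Ccne1 lay closer, at 852 ± 121 and 23.1 ± 2.96 CPM in the second table and 569.7 ± 37.8 and 21.3 ± 2.22 CPM in the first. Neutrophil markers summed to 21.0 to 23.7 CPM in the second and 228 to 267 CPM in the first. The table and anything else that differed between the experiments cannot be told apart.

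rHDL before LPS, without loading, was compared with LPS alone. The D-type cyclins Ccnd1 and Ccnd2 fell, and each was lower in every rHDL library than in every library with LPS alone. Cdk4, Ccne1, Mcm2, Mcm3, Mki67 and Cdt1 rose, and Mcm6 fell. In all, 6 of the 22 tested genes were higher and 3 lower, beside 36.5% of all 8965 genes called (18.1% higher and 18.4% lower). The share of the list called, 40.9%, was near that background, and the median log2 fold change was 0.20 over the 22 genes and 0.03 over all genes. With library totals 66.3% of calls over all genes were higher, in place of 49.5%. No tested S, G2 or M cyclin, no ribonucleotide reductase gene and no inhibitor passed. Ccnb1 was not tested here. Ccna2 and Ccnb2 held few counts, 19 and 27 after rHDL and LPS and 10 and 17 after LPS alone.

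Ccnd1 had 3.67, 3.69 and 3.91 CPM after rHDL and LPS, against 8.83, 6.99 and 8.07 CPM after LPS alone. Its log2 fold change was -1.08 ± 0.15 (adjusted p = 4.65e-05). Ccnd2 had 482, 416 and 439 CPM after rHDL and LPS, against 984, 748 and 822 CPM after LPS alone (-0.93 ± 0.11, adjusted p = 1.52e-05). Both cyclins were lower after rHDL without overlap, although LPS had moved them in opposite directions in the first table. Cdk4 had 67.3, 58.3 and 67.7 CPM after rHDL and LPS, against 42.3, 47.6 and 42.3 CPM after LPS alone (0.55 ± 0.08, adjusted p = 9.6e-05). Ccne1 had 41.2, 32.0 and 38.4 CPM after rHDL and LPS, against 25.8, 19.9 and 23.5 CPM after LPS alone (0.69 ± 0.15, adjusted p = 0.00215). For both, each rHDL library lay above each library with LPS alone.

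The helicase subunits differed among themselves. Mcm2 had 3.73, 4.04 and 4.29 CPM after rHDL and LPS, against 2.34, 2.63 and 1.96 CPM after LPS alone (0.78 ± 0.20, adjusted p = 0.00682). Mcm3, whose promoter is shown above with a pair of overlapping core matches, had 25.9, 28.4 and 27.3 CPM after rHDL and LPS, against 16.9, 18.5 and 16.7 CPM after LPS alone (0.64 ± 0.10, adjusted p = 0.000214). Mcm6 had 41.1, 38.6 and 38.1 CPM after rHDL and LPS, against 50.1, 43.3 and 53.2 CPM after LPS alone (-0.31 ± 0.09, adjusted p = 0.0166). The direction of Mcm6 was thus opposite to that of Mcm2 and Mcm3, and Mcm4, Mcm5 and Mcm7 did not pass (for Mcm7, 0.25 ± 0.37, adjusted p = 0.635, from 89 counts after rHDL and LPS and 51 after LPS alone). The call of Mcm6 ended without LPS replicate 1 or 3 (-0.29 and -0.25, adjusted p = 0.0607 and 0.0902), with library totals (-0.20, adjusted p = 0.0713) and on leaving out replicate 2 or 3 of rHDL and LPS (-0.30 and -0.29, adjusted p = 0.0510 and 0.0612). Cdt1 rose by 0.43 ± 0.12 (adjusted p = 0.0140), with 20.9, 16.0 and 18.1 CPM after rHDL and LPS, against 14.4, 12.3 and 14.4 CPM after LPS alone. Its call ended without LPS replicate 2 (0.36, adjusted p = 0.0643) and without rHDL replicate 1 (0.31, adjusted p = 0.0773).

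Mki67 had 209, 294 and 279 CPM after rHDL and LPS, against 137, 189.98 and 148 CPM after LPS alone (0.72 ± 0.16, adjusted p = 0.00305), and the groups did not overlap. The 10 other S, G2 and M genes summed to 6.70, 10.6 and 8.81 CPM after rHDL and LPS, against 7.02, 8.54 and 8.28 CPM after LPS alone, and these ranges overlapped. Top2a was at 0.27 ± 0.23 (adjusted p = 0.393), Rrm2 at 0.23 ± 0.44 (adjusted p = 0.715) and Cdk1 at -0.72 ± 0.35 (adjusted p = 0.131), the last with 33 counts after rHDL and LPS and 37 after LPS alone. Cdkn1a was at -0.41 ± 0.27 (adjusted p = 0.256).

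Beside these changes, the macrophage markers summed to 9807 to 12155 CPM after rHDL and LPS, against 18500 to 20011 CPM after LPS alone, with 5 of 7 tested markers lower and 1 higher. The neutrophil markers summed to 6.62 to 9.61 CPM after rHDL and LPS, against 21.0 to 23.7 CPM after LPS alone, with 3 of 3 lower. The dendritic markers summed to 102 to 117 CPM after rHDL and LPS and 70.6 to 95.1 CPM after LPS alone, with none of 3 called. Of the mast, erythroid and megakaryocyte markers Pf4 and Ppbp, both of platelets, were tested and were lower, with sums of 32.4 to 43.4 CPM after rHDL and LPS and 54.5 to 61.4 CPM after LPS alone. Progenitor markers summed to 0.139 to 0.442 CPM after rHDL and LPS and 0.872 to 0.958 CPM after LPS alone, with Kit, Cd34, Mpo, Elane and Ctsg at 0 in both and Gfi1, the 1 marker tested, lower. Their part in the result was not tested.

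Among further genes of the pathway, 2 of 30 tested replication genes were higher and 4 lower after rHDL, which called 36.5% of all genes (18.1% higher and 18.4% lower). Samhd1 changed by -1.07 ± 0.16 (adjusted p = 0.000115) and Pole2, a subunit of DNA polymerase epsilon, by 1.07 ± 0.28 (adjusted p = 0.00833). Of 18 tested mitosis genes, 4 were higher and 1, the kinetochore motor Cenpe, lower (-1.17 ± 0.19). Of 10 tested genes of the RB and E2F family, Rbl1 alone passed, at -0.86 ± 0.17 (adjusted p = 0.00121). Of 17 tested kinase inhibitors and p53 targets, 7 were higher and 5 lower, with Plk2, a stress-induced polo-like kinase, at 1.38 ± 0.07 and Cdkn2d, which encodes the p19 inhibitor of CDK4, at -0.95 ± 0.16. Of 13 growth signal genes, 1 was higher and 6 lower: Csf1r, the receptor of CSF1, changed by -0.84 ± 0.06 (adjusted p = 3.12e-07), Maf, which restrains macrophage self-renewal in mice, by -1.26 ± 0.09, and Mxd1 by -1.72 ± 0.14, while Id2 was at 0.77 ± 0.07.

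The authors' deposited table for rHDL without loading lists 1609 genes and holds 7 of the 36: Mcm2, Mcm3, Ccnd1, Ccnd2, Ccne1, Cdk4 and Mki67. It is a selected list, with adjusted p of at most 0.0497. The RPKM ratios of the 7 were at least 1.58 or at most 0.568. Cdt1 and Mcm6, called here at a fold of 1.35 and 0.81, are not listed. Absence from it is thus not a result of no change. In the authors' deposited table the log2 fold change of Ccnd1 was -1.09 (adjusted p = 1.49e-06) and that of Ccne1 0.68 (adjusted p = 2.79e-07). The authors' deposited table for rHDL after loading, with adjusted p of at most 0.0475, lists 47 genes and none of the 36.

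**Figure D3:**
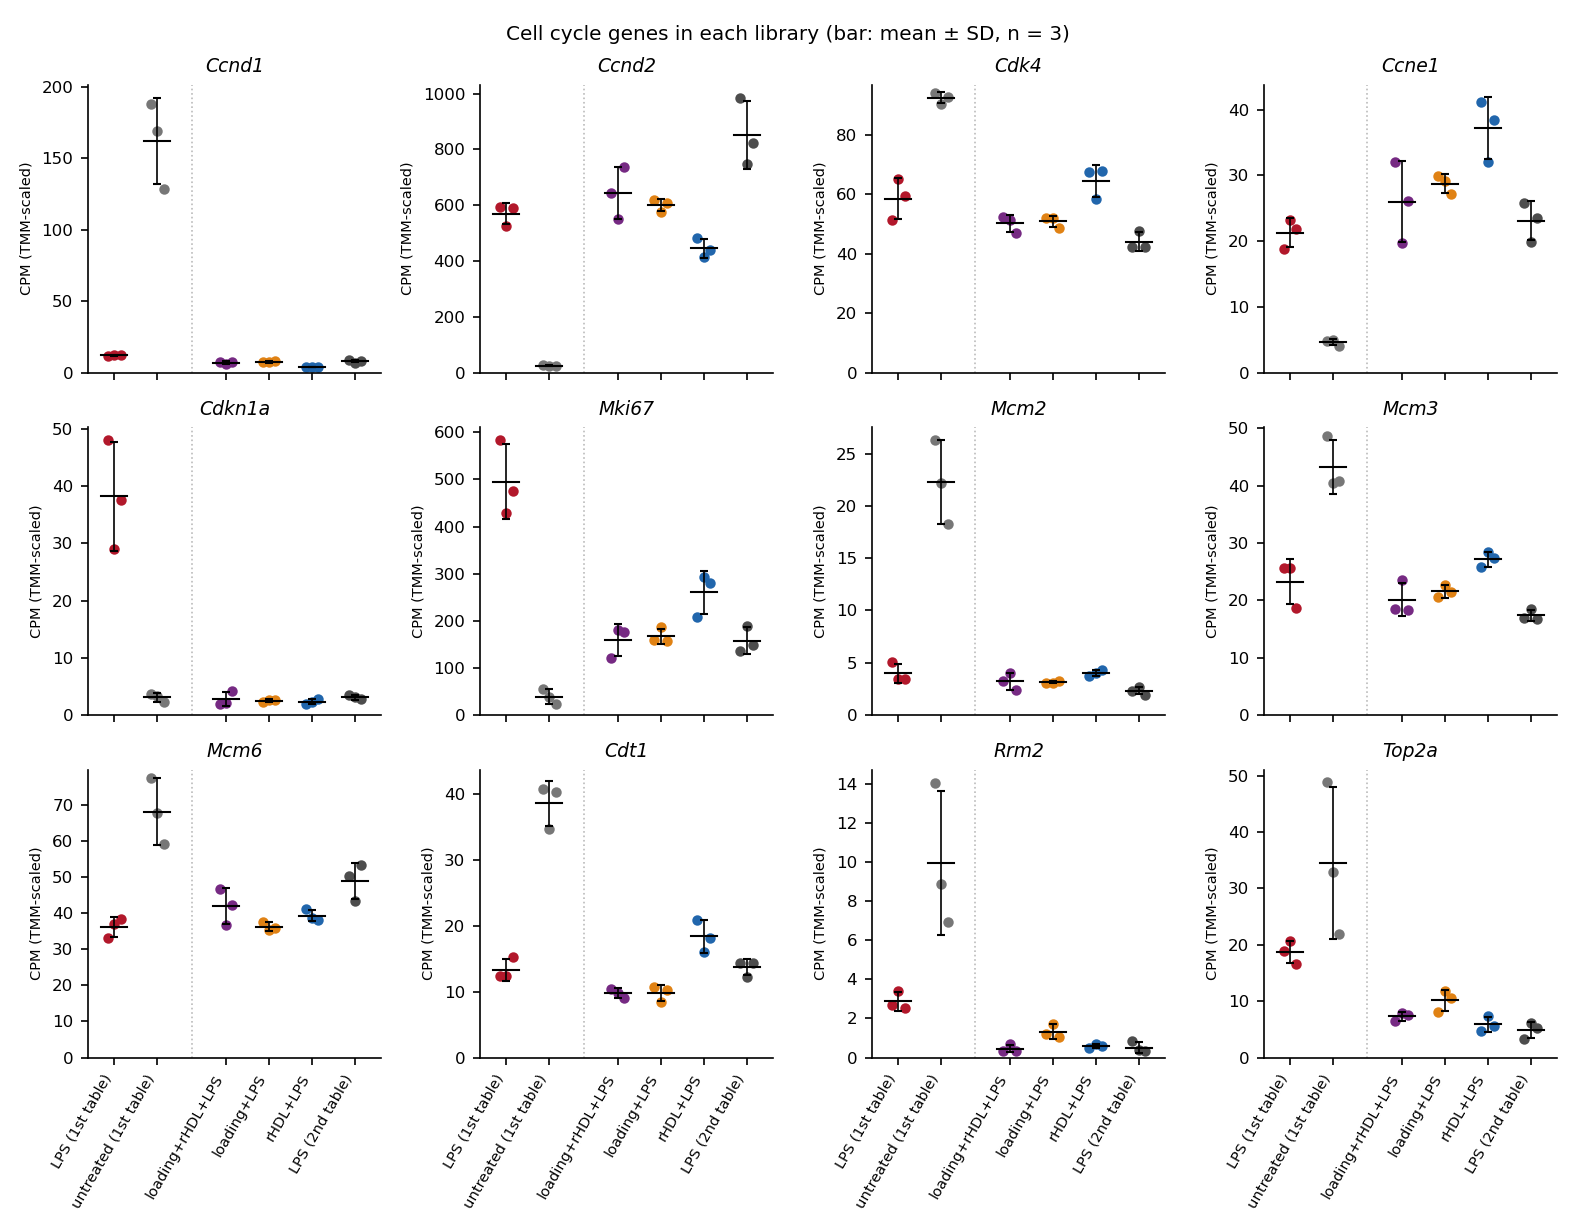
Normalised CPM (vertical axes, linear, starting at 0) of 12 genes in each library, with the mean and SD (black, n = 3). To the left of the dotted line are LPS-treated and untreated cells of the first table; to the right are the 4 groups of the second table, which was scaled separately, and Ccnd1 and Ccnd2 are lowest there after rHDL and LPS.

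After cholesterol loading, rHDL moved the list little. Of the 22 tested genes, 3 had an unadjusted p under 0.05 in edgeR, beside 1044 of all 8965 genes. DESeq2 called 0 of the 22. None of the 22 was called by edgeR without a replicate block, beside 1.02% of all 8965 genes (0.424% higher and 0.591% lower). With library totals 27.2% of those calls were higher, in place of 41.8%. The median log2 fold change was -0.08 over the 22 genes and 0.00 over all genes. Leaving out 1 library gave 10 to 68 higher and 20 to 55 lower genes among all, in place of 38 and 53. With the replicate number as a block, edgeR called Rrm2 and Top2a lower, and 277 genes higher and 209 lower among all. The largest change was that of Rrm2, with 0.346, 0.681 and 0.341 CPM after loading, rHDL and LPS, against 1.22, 1.73 and 1.03 CPM after loading and LPS (-1.53 ± 0.40, adjusted p = 0.0970). The groups of Rrm2 did not overlap, with 15 counts after loading, rHDL and LPS and 43 after loading and LPS. Top2a was at -0.47 ± 0.20 (adjusted p = 0.389), with 6.48, 7.88 and 7.50 CPM after loading, rHDL and LPS, against 8.00, 11.7 and 10.6 CPM after loading and LPS, again without overlap. Mcm6 was the third with an unadjusted p under 0.05 (0.21 ± 0.10, adjusted p = 0.415).

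The D-type cyclins showed no call after loading. Ccnd1 had 7.69, 5.84 and 7.07 CPM after loading, rHDL and LPS, against 7.26, 7.04 and 8.12 CPM after loading and LPS (-0.12 ± 0.14, adjusted p = 0.791). Ccnd2 had 642, 549 and 736 CPM after loading, rHDL and LPS, against 618, 576 and 609 CPM after loading and LPS (0.10 ± 0.11, adjusted p = 0.787). Both cyclins overlapped between the groups. Ccne1 (-0.14 ± 0.15), Cdk4 (-0.02 ± 0.08), Mcm3 (-0.10 ± 0.10) and Mki67 (-0.08 ± 0.16) did not pass either, with adjusted p of 0.768, 0.946, 0.761 and 0.895. In the further lists, none of 30 replication genes, 18 mitosis genes, 10 genes of the RB and E2F family or 13 growth signal genes was called. Of 17 kinase inhibitors and p53 targets Btg2, an antiproliferative gene, was called higher (0.29 ± 0.06, adjusted p = 0.0477). That call ended without loading and LPS replicate 1, 2 or 3 (adjusted p = 0.114, 0.223 and 0.0913), without loading, rHDL and LPS replicate 2 or 3 (0.0971 and 0.138) and with library totals (0.201) or the 2 groups alone (0.228). Macrophage markers summed to 15542 to 19292 CPM after loading, rHDL and LPS and 17867 to 19403 CPM after loading and LPS, with none of 7 called.

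The difference between the rHDL effects, after loading minus without, was tested as an interaction. It was called higher for 3 genes and lower for 5 of the 22, beside 30.2% of all genes (16.0% higher and 14.2% lower). The share of the list, 36.4%, was near the background. Higher differences belonged to Ccnd2 (1.03 ± 0.16, adjusted p = 0.000232), Ccnd1 (0.96 ± 0.20, adjusted p = 0.0024) and Mcm6 (0.52 ± 0.13, adjusted p = 0.00893), whose falls under rHDL were not called after loading. Lower differences belonged to Mcm3 (-0.74 ± 0.15, adjusted p = 0.00163), Cdk4 (-0.57 ± 0.11, adjusted p = 0.00179), Ccne1 (-0.84 ± 0.21, adjusted p = 0.00847), Mki67 (-0.79 ± 0.23, adjusted p = 0.0178) and Rrm2 (-1.77 ± 0.60, adjusted p = 0.0374). Of these, Mcm3, Cdk4, Ccne1 and Mki67 had risen under rHDL without loading. Mcm2 (-0.76 ± 0.28, adjusted p = 0.0578), Top2a (-0.73 ± 0.31, adjusted p = 0.0884) and Cdt1 (-0.43 ± 0.19, adjusted p = 0.0978) did not pass. All of them passed with library totals, and also with TMM scaling and the replicate number as a block. Each of these settings gave 3 higher and 8 lower. With library totals 32.4% of calls over all genes were higher, in place of 52.96%.

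The call of Mki67 for the difference ended without LPS replicate 1 (-0.70, adjusted p = 0.0518) and without loading and LPS replicate 2 (-0.70, adjusted p = 0.0526). That of Rrm2 ended with DESeq2 (adjusted p = 0.106), with no filter on low counts (0.0602) and in 8 of the 12 fits without 1 library. These were without LPS replicate 2 or 3 (-1.55 each, adjusted p = 0.0898 and 0.0914), rHDL and LPS replicate 2 or 3 (-1.64 and -1.76, adjusted p = 0.0906 and 0.0676), loading and LPS replicate 1 or 2 (-1.81 and -1.54, adjusted p = 0.0524 and 0.0884) and loading, rHDL and LPS replicate 1 or 3 (-1.60 and -1.59, adjusted p = 0.0741 and 0.0898). Without loading and LPS replicate 2 the lower differences numbered 3. Of the further genes, beside the 30.2% of all genes called for the difference, 3 of 30 replication genes had a higher difference and 2 a lower one, 1 and 2 of 18 mitosis genes, 1 and 0 of 10 genes of the RB and E2F family, 5 and 2 of 17 kinase inhibitors and p53 targets, and 7 and 1 of 13 growth signal genes.

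Cholesterol loading before LPS was compared with LPS alone, and this comparison shares its LPS libraries with that of rHDL without loading and its loaded libraries with that of rHDL after loading. Top2a and Rrm2 rose, and Ccnd2, Cdt1 and Mcm6 fell. That was 2 of 22 tested genes higher and 3 lower, beside 8.57% of all genes (3.99% higher and 4.57% lower). The median log2 fold change was 0.27 over the 22 genes and 0.01 over all. With library totals 71.1% of calls over all genes were higher, in place of 46.6%. DESeq2 gave 1 higher and 3 lower, and Rrm2 lost its call with DESeq2 size factors, no filter on low counts or the 2 groups alone (adjusted p = 0.0514, 0.0625 and 0.0593). Without 1 library the counts were 1 higher and 0 to 3 lower, and those over all genes 158 to 245 higher and 189 to 349 lower, in place of 358 and 410. With the replicate number as a block, 5 were higher (Ccne1, Mcm3, Rrm1, Rrm2 and Top2a) and 4 lower (Ccnd2, Cdkn1b, Cdt1 and Mcm6).

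Top2a had 8.00, 11.7 and 10.6 CPM after loading and LPS, against 3.30, 6.08 and 5.23 CPM after LPS alone (1.03 ± 0.22, adjusted p = 0.0107). Rrm2 had 1.22, 1.73 and 1.03 CPM after loading and LPS, against 0.851, 0.363 and 0.327 CPM after LPS alone (1.35 ± 0.40, adjusted p = 0.0496), with 43 counts after loading and LPS and 15 after LPS alone. In both genes the loaded libraries lay above those with LPS alone, as they also did in uncalled genes such as Mcm3 and Rrm1. Ccna2, at 1.41 ± 0.45, did not pass (adjusted p = 0.0707), with 0.734, 1.02 and 1.03 CPM after loading and LPS and 0.532, 0.182 and 0.327 CPM after LPS alone. The 10 S, G2 and M genes other than Mki67 summed to 12.3, 17.4 and 16.3 CPM after loading and LPS, against 7.02, 8.54 and 8.28 CPM after LPS alone, without overlap. These sums were largely Top2a itself, and without it they were 4.32, 5.71 and 5.70 CPM after loading and LPS and 3.73, 2.45 and 3.05 CPM after LPS alone. Mki67 itself was at 0.08 ± 0.16 (adjusted p = 0.820). Mcm3 (0.31 ± 0.11, adjusted p = 0.0926) and Rrm1 (0.33 ± 0.11, adjusted p = 0.0798) did not pass.

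Ccnd2 had 618, 576 and 609 CPM after loading and LPS, against 984, 748 and 822 CPM after LPS alone (-0.50 ± 0.11, adjusted p = 0.0124). Cdt1 had 10.7, 8.36 and 10.2 CPM after loading and LPS, against 14.4, 12.3 and 14.4 CPM after LPS alone (-0.48 ± 0.14, adjusted p = 0.0419). Mcm6 had 37.5, 35.4 and 35.9 CPM after loading and LPS, against 50.1, 43.3 and 53.2 CPM after LPS alone (-0.43 ± 0.10, adjusted p = 0.0138). The groups did not overlap in any of the 3. Nor did they in uncalled genes such as Ccne1, Cdk4 and Mcm2, and the share of all genes without overlap was not counted. Ccnd1 was at -0.09 ± 0.14 (adjusted p = 0.763), so of the D-type cyclins Ccnd2 alone was called here. Cdt1 was lower after loading, while rHDL without loading raised it.

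None of these 5 calls held in every fit without 1 library. Without LPS replicate 1, Top2a (0.82, adjusted p = 0.0528), Ccnd2 (-0.39, adjusted p = 0.0646), Mcm6 (-0.41, adjusted p = 0.0565) and Cdt1 (-0.44, adjusted p = 0.138) lost theirs. Rrm2 lost its call without LPS replicate 2 (1.13, adjusted p = 0.161), and without LPS replicate 3 so did Rrm2 (1.14, adjusted p = 0.176), Mcm6 (-0.36, adjusted p = 0.0735) and Cdt1 (-0.44, adjusted p = 0.137). Without loading and LPS replicate 1, Rrm2 (1.41, adjusted p = 0.0929) and Cdt1 (-0.56, adjusted p = 0.0589) lost theirs. Without loading and LPS replicate 2, Rrm2 (1.14, adjusted p = 0.172), Mcm6 (-0.41, adjusted p = 0.0548), Cdt1 (-0.39, adjusted p = 0.157) and Ccnd2 (-0.48, adjusted p = 0.0556) did. Without loading and LPS replicate 3, the library with the high stromal and dendritic markers, Rrm2 (adjusted p = 0.0734), Mcm6 (-0.42, adjusted p = 0.0614) and Cdt1 (-0.51, adjusted p = 0.103) did, while Top2a and Ccnd2 kept theirs. Cdt1 also lost its call with library totals (-0.40, adjusted p = 0.0589).

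In the further lists, beside the 8.57% of all genes that loading changed (3.99% higher and 4.57% lower), loading left all 30 replication genes uncalled and raised 3 of 18 mitosis genes. One was Smc2, a condensin subunit (0.39 ± 0.10, adjusted p = 0.0235). Its call ended without LPS replicate 1, 2 or 3 (adjusted p = 0.0584, 0.0512 and 0.106) and without loading and LPS replicate 1 or 2 (0.0982 and 0.0785). No gene of the RB and E2F family was called. Of 17 kinase inhibitors and p53 targets 3 were higher and 4 lower, with Plk2 at -0.49 ± 0.07 (adjusted p = 0.00097) and Gadd45g, a growth arrest gene, at -1.10 ± 0.21. Of 13 growth signal genes none was higher and 3 were lower, with Mxd1 at -1.05 ± 0.14 (adjusted p = 0.000268). Macrophage markers summed to 17867 to 19403 CPM after loading and LPS and 18500 to 20011 CPM after LPS alone, with 1 of 7 lower. Progenitor markers summed to 1.12 to 1.53 CPM after loading and LPS and 0.872 to 0.958 CPM after LPS alone, with Kit, Cd34, Mpo, Elane, Ctsg and Flt3 at 0 in both and Gfi1 not called. The mast, erythroid and megakaryocyte markers summed to 65.2 to 75.2 CPM after loading and LPS and 54.5 to 61.4 CPM after LPS alone, with none of 2 called. Neither pair of ranges overlapped. The neutrophil markers overlapped, at 17.9 to 29.97 CPM after loading and LPS and 21.0 to 23.7 CPM after LPS alone, with 1 of 3 lower. Their part in the result was not tested.

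**Figure D4:**
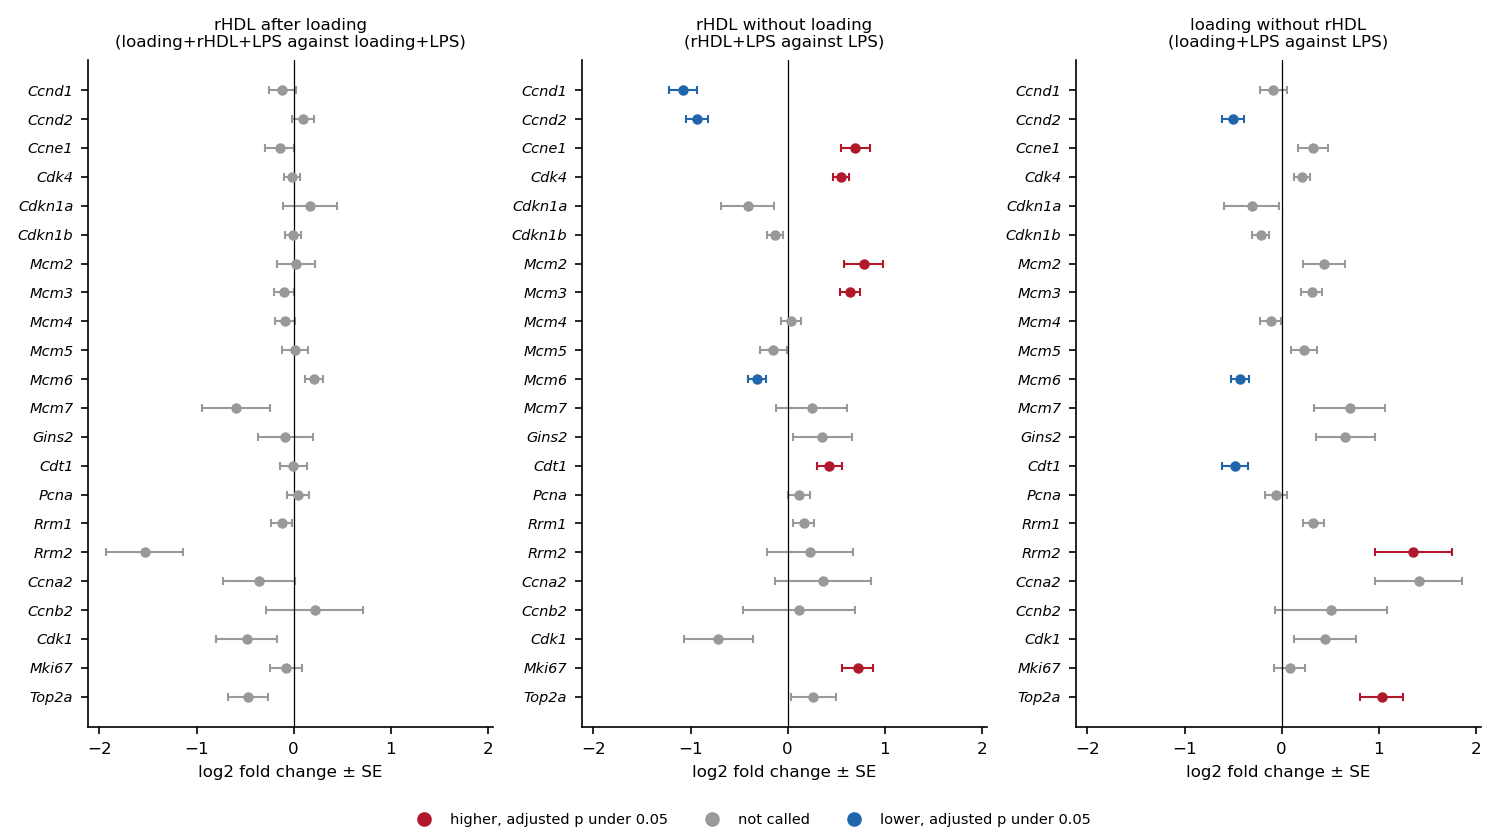
Log2 fold changes with SE (horizontal axes, n = 3 libraries per group) of the 22 genes tested in the second table, for rHDL after loading (left), rHDL without loading (middle) and loading without rHDL (right). Red points were called higher and blue points lower; the left panel holds no called gene, and the middle panel shows 6 higher and 3 lower.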

How the data were processed

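Per the submitters' processing notes, reads were trimmed with cutadapt, aligned to mm10 with HISAT2 and counted by featureCounts (Subread), with no versions stated. The deposited tables hold raw read counts for 32850 transcript rows, not normalised by the authors. The authors' deposited comparison tables hold log2 fold changes, adjusted p-values and ratios of RPKM values.

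Rows were summed per symbol and fitted with edgeR 4.0.16 in R 4.3.3 (TMM scaling, filterByExpr with a minimum count of 10, quasi-likelihood F tests, 2-sided, Benjamini-Hochberg over all genes tested, called under 0.05), each table apart and with all 12 libraries of the second in 1 fit. CPM values are counts over the TMM-scaled library size. A value after ± is the SE of a log2 fold change or the SD of a CPM. The fits were tested on simulated data with 100 genes changed 1.5-fold in each comparison. They recovered 73 with LPS, 61 with rHDL, 63 with rHDL after loading, 64 with loading and 36 for the difference. A gene that was not called may thus have changed. Alternatives were DESeq2 1.42.0, its size factors, library totals, other filters, fits of 2 groups, the replicate number as a block and leaving out each library. Values of every library are given for the up to 5 genes called with the largest change in each direction of a comparison and for the gene of smallest p in each role; others are given by counts, or by value where they spell out a small count or were picked after their values were seen. The members and the further gene lists were chosen with earlier results of these data known. Genome positions are those of the mm10 rows, and promoters come from RefSeq.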

Additional observations from a re-analysis of the deposited data

Results flagged for a closer look

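In 8 genes the effect of rHDL differed between loaded and unloaded cells by a test of the difference itself (edgeR interaction, adjusted p in the account of that comparison above). This was 36.4% of the 22 tested genes, near the 30.2% of all genes called for the difference. The difference, after loading minus without, was 1.03 for Ccnd2, 0.96 for Ccnd1 and 0.52 for Mcm6 on the log2 scale. It was -1.77 for Rrm2, -0.84 for Ccne1, -0.79 for Mki67, -0.74 for Mcm3 and -0.57 for Cdk4. The call of Rrm2 ended in 8 of 12 fits without 1 library and with DESeq2 (adjusted p = 0.106), and that of Mki67 in 2 of 12. Beside it, the macrophage markers lay at 15542 to 19292 CPM with rHDL against 17867 to 19403 CPM without it in loaded cells, and at 9807 to 12155 CPM with rHDL against 18500 to 20011 CPM without it in unloaded cells. Their part in the difference was not tested.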

How the results depend on the processing

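Counts of called genes are given as higher and lower, and the cause of the moves was not tested. With library totals in place of TMM, all genes gave 1532 and 6640 with LPS, 2507 higher with rHDL, 25 higher with rHDL after loading, 2124 lower for the difference between rHDL effects and 626 and 254 with loading, and the listed genes gave 8 lower for that difference. There Pcna (-0.56) and Cdkn1b (-0.25) reversed under LPS. DESeq2 gave 91 higher among all genes with rHDL after loading, and 1 listed gene higher with loading, as did its size factors and the fit with no filter on low counts. With no filter, rHDL after loading gave 90 and 86 among all genes. Fits of the 2 groups alone gave 19 and 23 with rHDL after loading, and 691 lower with loading.

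Same-numbered libraries did not deviate together in the first table (correlations of 0.07, -0.08 and 0.01). In the second, same-numbered libraries correlated at 0.15 to 0.44 for replicates 1 and 2, and at -0.030 to 0.18 for replicate 3. Every replicate 1 library correlated negatively with every replicate 2 library of another group (-0.14 to -0.34). Replicates 1 and 2 there thus deviated by number, which the fits without a block leave out. Since replicate 3 did not do so throughout, the numbers were not taken to pair the samples, and the block is given as an alternative. This does not exclude a pairing, since a replicate that deviates little would correlate near 0 even if paired. On the first principal component of the second table, replicate 3 lay between replicates 1 and 2 in every group. For LPS alone the values were -18.5, -4.45 and -12.7 for replicates 1, 2 and 3. With the replicate block, rHDL after loading gave 2 listed genes lower (Rrm2 and Top2a) and 277 and 209 among all genes, the difference gave 8 listed genes lower, and loading gave 5 listed genes higher and 717 and 934 among all. The block left the listed counts at 5 and 20 with LPS and at 6 and 3 with rHDL.

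Without 1 library each, the listed genes gave 3 to 6 lower for the difference, and 1 to 1 higher and 0 to 3 lower with loading. All genes gave 10 to 68 higher and 20 to 55 lower with rHDL after loading, and 158 to 245 and 189 to 349 with loading. Among genes whose values are given above, those that changed sign were uncalled: Mki67 with loading (-0.017 to 0.23), and with rHDL after loading Cdk4 (-0.051 to 0.028), Mki67 (-0.17 to 0.094), Ccne1 (-0.32 to 0.017) and Ccnd2 (-0.011 to 0.20). Over all listed genes, uncalled values changed sign 19 times with rHDL after loading, 7 times for the difference, 5 times with rHDL and 3 times with loading. Among log2 fold changes of called listed genes under settings that kept all libraries, 333 kept direction and call, 8 lost the call and 1 reversed; without 1 library, 293 kept both and 37 lost the call. Genes under about 50 counts per group, such as Rrm2 and Ccna2 in the second table, carry the widest errors.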
